A study of Mus musculus with 6 samples.

Results

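The regions described here are peaks of a streptavidin pull-down that were called in untreated cells, were not called after doxycycline, and lie far from genes. A peak was a member when its interval stood in the untreated list, overlapped no doxycycline interval by 1 bp or more, and had its midpoint more than 50 kb from every protein-coding gene of the mm10 RefSeq annotation, on chromosomes 1 to 19 and X. Of 4379 untreated peaks, 4304 (98.3%) overlapped no doxycycline peak, and 1602 of these 4304 (37.2%) met the distance limit. The members are therefore 1602 of 8019 peaks in both lists together. Presence in one list and absence from the other chose them, so that difference between conditions is a description here and was not tested.

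All libraries came from day 6 cardiac progenitors that had been differentiated from the mouse embryonic stem cell line GLI3R-FTA, strain A2Lox.cre. This line makes an Avi-tagged GLI3R, the repressor form of GLI3, when given doxycycline, and the untreated cells carry the same construct. The untreated group had 2 pull-downs with streptavidin beads and 1 input, and had no doxycycline. The doxycycline group had 2 pull-downs and 1 input, with 500 ng/ml doxycycline for 24 h from day 5. The factor is given here as in the sample titles, GLI3R, although the labels' treatment text has GLI1. The files used here hold 1 peak list per condition and no expression values, so no peak has a replicate error and the cell type was not checked against its markers.

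GLI proteins are the zinc finger transcription factors at the end of the Hedgehog pathway. Without Hedgehog ligand, GLI3 is cut to a repressor that sits on target genes and holds them down. Long stretches without protein-coding genes are common around genes of the nervous system and around developmental regulators, and some of them hold enhancers that act on a gene from a great distance. Streptavidin binds biotin, the group that is added to an Avi tag.

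No member held the start of a protein-coding gene, by construction, and the RefSeq sequences available here cover only starts of genes and miRNAs. One member met such a sequence. It lay at the start window of the non-coding gene 9230102K24Rik (GRCm38.p6, chr10:110600400-110600699, plus strand), and is shown because it is the single member whose bases can be printed. The window has 250 bases before the start and 50 after it, 18 bases of it lie in the peak, and those bases are in capitals.
9230102K24Rik: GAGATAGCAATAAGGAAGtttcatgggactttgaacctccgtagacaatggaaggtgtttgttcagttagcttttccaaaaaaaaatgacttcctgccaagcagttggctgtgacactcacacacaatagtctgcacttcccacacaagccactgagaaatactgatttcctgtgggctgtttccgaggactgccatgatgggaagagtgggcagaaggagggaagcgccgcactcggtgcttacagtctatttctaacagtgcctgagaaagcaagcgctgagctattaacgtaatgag
This peak (chromosome 10, 110600276 to 110600417) was 142 bp wide and lay 145 kb from Nav3, with a 3.93-fold enrichment over its local expectation, a −log10 q of 1.48 and 4 fragments over its summit. No member had fewer fragments. Whether the input libraries entered that expectation is not known here, and this holds for every fold and −log10 q below. The GLI site GACCACCCA, searched on both strands, is not in the window, and neither is its shorter part GACCACCC. Of 32851 start windows of the same length, 0.253% hold the first and 0.807% the second. The summit of this peak, at 110600344, and most of its bases lie outside the window and were not searched.

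Mature miRNAs were the other sequences close to members. Of 1738 mature miRNAs in the table, 5 lay within 3 kb of a member, at 2 places. Those with the 5p arm or a single listed arm are printed 5′ to 3′ with the seed, bases 2 to 8, in capitals.
mmu-miR-181a-5p: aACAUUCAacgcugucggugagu
mmu-miR-181b-5p: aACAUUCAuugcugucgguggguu
mmu-miR-101c: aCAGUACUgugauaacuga
The first pair share 1 seed, and the hairpins meant here are Mir181a-1 and Mir181b-1, neighbours on chromosome 1. A member (chromosome 1, 137968390 to 137968566) lay 1.72 kb from the mature miR-181b-5p and 1.90 kb from miR-181a-5p, with 5.50-fold enrichment and 6 fragments. The nearest protein-coding gene, Ptprc, which encodes the leukocyte antigen CD45, lay 94.4 kb away. The third miRNA, mmu-miR-101c, lay 2.57 kb from a member near the start of the chromosome 9 sequence (3035703 to 3036112). That member had the largest pileup of all, 24 fragments, and a local expectation of 2.93 fragments. A further member in this block (3027128 to 3027270) had 17 fragments at an expectation of 3.38. These were the only 2 members with an expectation above 2 times the commonest value of the list, 0.272 fragments.

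Most members rested on few fragments. The pileup, the number of fragments over the summit, was worked back from the authors' fold and −log10 p. It was 4 in 546 members (34.1%), 5 in 505 (31.5%), 6 in 266 (16.6%), 7 in 138 (8.61%), 8 or 9 in 103 (6.43%) and 10 or more in 44 (2.75%). The members' fold enrichment ran from 3.78 to 14.1 with a median of 4.72 and quartiles of 3.93 and 5.50. Their −log10 q ran from 1.44 to 20.8 with a median of 2.52. Since 1416 members (88.4%) had an expectation within 5% of the commonest value, their fold follows the pileup in steps, and the 4 commonest folds hold 1277 members (79.7%). A step of 1 fragment between members lies within counting error.

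Members and the other untreated-only peaks were of like strength. The median fold was 4.72 for members, for the 1072 untreated-only peaks within 50 kb of a gene and for the 1630 inside genes, and the median −log10 q was 2.52 in each class. A −log10 q of at least 5 was reached by 145 members (9.05%, exact 95% Clopper-Pearson interval 7.69 to 10.6), by 90 peaks near genes (8.40%, 6.80 to 10.2) and by 134 inside genes (8.22%, 6.93 to 9.66). Over all untreated-only peaks the share was 8.57%. At least 10 fragments were found in 2.75% of members (2 to 3.67), against 1.87% (1.14 to 2.87) near genes, 2.09% (1.45 to 2.90) inside genes and 2.28% over all untreated-only peaks. The intervals of the 3 classes overlap throughout, and they cover counting error only. No test was made over peaks, which share their libraries.

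Peaks of the doxycycline list at the same distance from genes are given beside them, as values of another list. The 1018 doxycycline-only peaks more than 50 kb from genes are 28.5% of 3567 doxycycline-only peaks. Their median fold was 5.12, against 5.85 within 50 kb of genes and 5.78 inside genes in their own list. A −log10 q of at least 5 was reached by 25.5% of them (22.9 to 28.3), 38.5% near genes (35.4 to 41.7) and 33.8% inside genes (31.5 to 36.2), against 32.7% over all doxycycline-only peaks. That list begins at 5 fragments and the untreated list at 4, and the commonest expectation was 0.368 against 0.272, so levels are not comparable across the lists. At least 10 fragments were found in 10.8% of the far doxycycline-only peaks and in 15.7% of all doxycycline-only peaks. Within the doxycycline list strength was lower far from genes. In the untreated list no such order was seen.

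**Figure D1:**
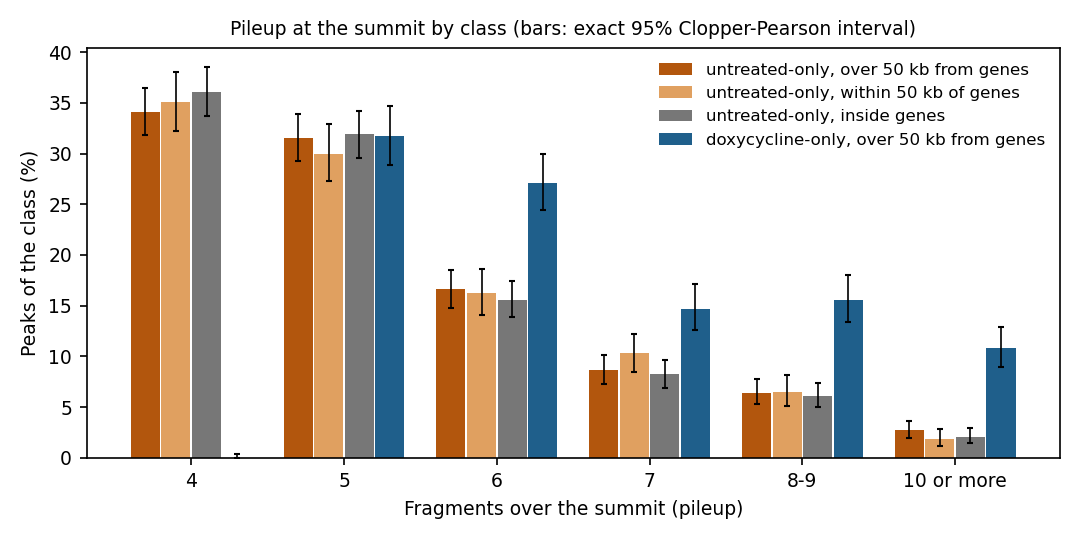
Share of peaks (y axis, %) at each number of fragments over the summit (x axis) for 3 classes of untreated-only peaks and for doxycycline-only peaks more than 50 kb from genes, with exact 95% Clopper-Pearson intervals. The 3 untreated-only classes nearly coincide at each level, with 34.1% of the far peaks at 4 fragments, while the doxycycline list has no peak below 5 fragments and 10.8% of its far peaks at 10 or more.

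Members were narrow at every strength. Their width had a median of 154 bp and quartiles of 143 and 172 bp, and 1483 (92.6%) were under 200 bp. The narrowest was 134 bp and the widest, 146 kb from the insulin-like growth factor binding protein gene Igfbp3, 419 bp. Members with 4 fragments had a median width of 153 bp and those with 10 or more 152 bp. Far doxycycline-only peaks had a median width of 153 bp at 5 fragments and 198 bp at 10 or more. The summit lay a median of 11.0 bp from the midpoint of the interval in members. The width of members thus did not grow with their pileup, while that of the far doxycycline peaks was larger in the strongest class.

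The density of untreated-only peaks varied little from genes outwards. Sequence more than 50 kb from protein-coding genes made up 914 Mb, or 35.6% of the 2570 Mb spanned by the annotation and the peaks, and it held 37.2% (35.8 to 38.7) of the untreated-only peaks. The members' density was 1.75 peaks per Mb (exact 95% Poisson interval 1.67 to 1.84), against 1.63 (1.57 to 1.69) in all other sequence, a ratio of 1.07 (1.01 to 1.14). With distance the members' density was 1.63 per Mb at 50 to 100 kb (330 members), 1.71 at 100 to 200 kb (375), 1.83 at 200 to 500 kb (510), 1.72 at 500 to 1000 kb (252) and 2 (1.67 to 2.37) at 1000 to 2000 kb (132). Beyond 2000 kb there were 3 members in 1.75 Mb, or 1.71 per Mb (0.353 to 5.01), a class too small to place. Inside genes the density was 1.58 per Mb (1.51 to 1.66), and within 1 kb of a gene 1.51 (1.13 to 1.98). The interval of each distance class outside genes includes 1.75, and that of sequence inside genes ends below it.

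Doxycycline-only peaks thinned out over the same sequence. Their density was 1.55 per Mb (1.47 to 1.62) inside genes and 3.71 (3.10 to 4.41) within 1 kb of a gene. It was 1.46 (1.30 to 1.63) at 1 to 10 kb, 1.36 (1.25 to 1.49) at 10 to 50 kb and 1.38 (1.22 to 1.55) at 50 to 100 kb. Farther out it was 0.968 (0.856 to 1.09) at 200 to 500 kb and 0.909 (0.693 to 1.17) at 1000 to 2000 kb. Over all sequence more than 50 kb from genes it was 1.11 per Mb (1.05 to 1.18), against 1.54 (1.48 to 1.60) elsewhere, a ratio of 0.724. Stronger peaks were also looked at within each list. With the −log10 q at 5 or more, the share far from genes was 39.3% (34.3 to 44.5) of untreated-only and 22.3% (19.9 to 24.8) of doxycycline-only peaks. Among those with at least 10 fragments it was 44.9% (34.8 to 55.3) and 19.6% (16.4 to 23.2). The untreated-only intervals hold that list's 37.2%, and the doxycycline-only intervals end below that list's 28.5%. These cuts keep unlike parts of the lists, 8.57% and 2.28% of untreated-only but 32.7% and 15.7% of doxycycline-only peaks. Assembly gaps within chromosomes and sequence that cannot be mapped were not removed from these lengths, and their part in the densities was not tested.

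**Figure D2:**
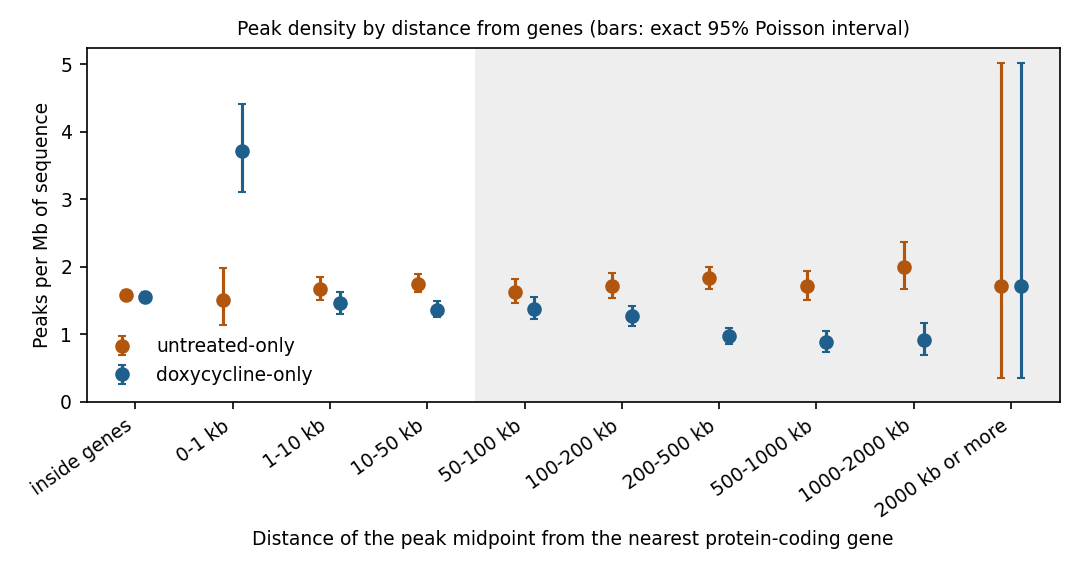
Peaks per Mb (y axis) by distance of the peak midpoint from the nearest protein-coding gene (x axis) for untreated-only and doxycycline-only peaks, with exact 95% Poisson intervals and the members' range shaded. Untreated-only points lie between 1.51 and 2 up to 2000 kb. Doxycycline-only points go from 3.71 within 1 kb to 1.46 at 1 to 10 kb, and reach 0.909 at 1000 to 2000 kb.

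The members' distances from a gene had a median of 240 kb, with quartiles of 115 and 484 kb, against a median of 180 kb for far doxycycline-only peaks. The farthest member lay 2131 kb from the protocadherin gene Pcdh20 (chromosome 14, 90602265 to 90602417), at 4.72-fold. The next were 2080 kb from the cadherin gene Cdh20 (4.72-fold) and 2078 kb from Cntnap5b (6.29-fold), in 1 stretch of chromosome 1, and 2 members 1858 and 1836 kb from Tmeff2, both at 3.93-fold. At the limit itself, the nearest members lay 50.0 kb from Ofcc1, 50.2 kb from the glutamate transporter gene Slc1a3 and 50.3 kb from the MAP kinase phosphatase gene Dusp4, all at 3.93-fold. Just short of it, untreated-only peaks lay 49.6 kb from Sec23ip (3.93-fold), 49.5 kb from Tns3 (4.72-fold) and 49.4 kb from Myl10 (5.50-fold).

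The strongest members were single sites spread over many chromosomes. The highest −log10 q, 20.8, belonged to a peak 144 kb from Epha3, an ephrin receptor of axon guidance (chromosome 16, 64007787 to 64007958), with 17 fragments and 14.1-fold enrichment. The second, at 16 fragments and 13.4-fold, lay 281 kb from Aga, which encodes a lysosomal enzyme (chromosome 8, 53230690 to 53230830). The third, at 14 fragments and 11.8-fold, lay 494 kb from Lcorl and inside the pseudogene Gm7931 (chromosome 5, 46352196 to 46352382). A peak 420 kb from the serotonin receptor gene Htr1b had 14 fragments and 11.1-fold enrichment at a local expectation of 0.351. One 84.3 kb from the sorting nexin gene Snx10 had 13 fragments and 11.0-fold enrichment.

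The next 3 had 12 fragments and 10.2-fold enrichment, 109 kb from the homeodomain factor gene Pbx3, 289 kb from the zinc finger gene Zfp64 and 317 kb from the sorting nexin gene Snx7. There were 11 members that shared the next −log10 q of 10.4, each with 11 fragments and 9.43-fold enrichment. The 7 of them taken in chromosome order lay 140 kb from Spats2l, 335 kb from Cntnap5a, 1466 kb from the potassium channel gene Kcnt2, 113 kb from the muscle actin-binding protein gene Xirp2, 53.1 kb from the taste receptor gene Tas2r114, 66.3 kb from the proliferation marker gene Mki67 and 65.2 kb from the atypical cadherin gene Fat1. All 15 were between 139 and 216 bp wide. Their distance to the nearest doxycycline peak ran from 5.55 kb, at the member near Mki67, to 1306 kb at the one near Lcorl.

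Chromosome X stood below the autosomes. It held 48 members in 75.3 Mb of far sequence, or 0.637 per Mb (0.470 to 0.845). The 19 autosomes held 1554 in 839 Mb, or 1.85 per Mb (1.76 to 1.95), and ranged from 1.39 (1.04 to 1.8) on chromosome 15 to 2.2 (1.87 to 2.57) on chromosome 3. The ratio of X to autosomes was 0.344 (0.253 to 0.458). It was 0.373 (0.255 to 0.528) for far doxycycline-only peaks, 0.431 (0.333 to 0.549) for untreated-only peaks in other sequence and 0.195 (0.130 to 0.281) for doxycycline-only peaks in other sequence. A lower density on X was thus found in every class of both lists. Members on X had a median fold of 4.72, as on autosomes, and 5 of 48 (10.4%) reached a −log10 q of 5, against 9.01% on autosomes. The largest pileup on X was 9 fragments, against 24 on autosomes. With 5 such members on X, these values cannot tell whether strength differed there.

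Among autosomes, chromosomes 3 and 1 held the most members, 155 and 145, and chromosome 19 the fewest, 20. On chromosome 3 the members were 50.7% of all 306 untreated-only peaks, and on chromosome 19 they were 24.4% of 82. The far share of the sequence was 45% on chromosome 3 and 23.9% on chromosome 19, so the share of peaks went with the share of sequence there. The highest autosomal densities of far doxycycline-only peaks were on chromosomes 8 and 16, at 1.76 (1.40 to 2.18) and 1.52 (1.14 to 1.98) per Mb, and not on those where members were densest.

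**Figure D3:**
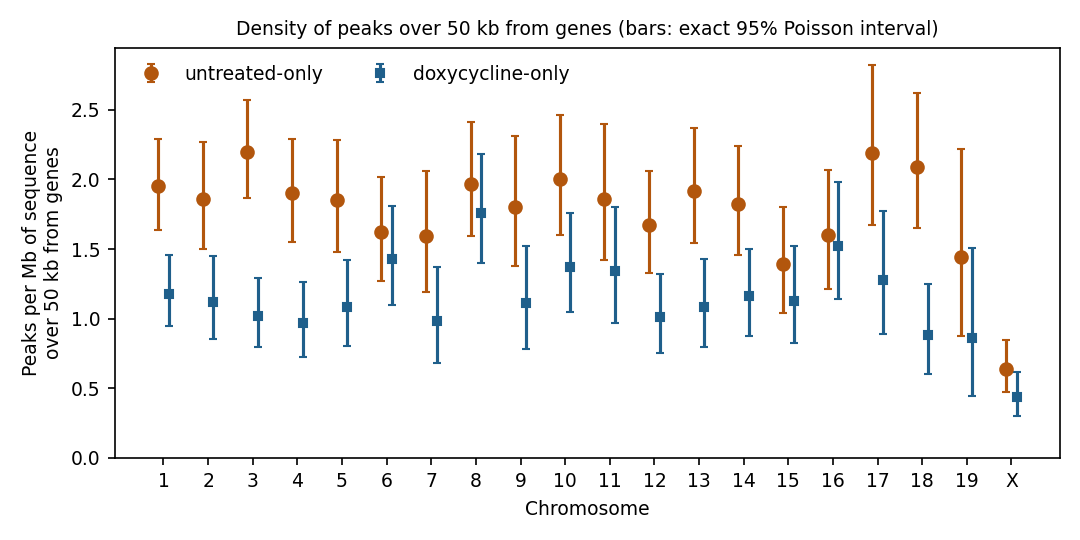
Peaks per Mb of sequence more than 50 kb from protein-coding genes (y axis) on each chromosome (x axis) for untreated-only and doxycycline-only peaks, with exact 95% Poisson intervals. Chromosome X has the lowest value in both, 0.637 and 0.438 per Mb, and the autosomal untreated-only values run from 1.39 to 2.2.

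Members were spread over many gene-free stretches. A stretch is the sequence between neighbouring protein-coding genes, and 2768 stretches had sequence more than 50 kb from both ends. Of these, 818 (29.6%) held a member, 485 held 1 and 65 held 5 or more. The 65 held 431 members (26.9%) in 17% of the far sequence, a selection made by their counts. By stretch length the density was 1.72 per Mb (1.55 to 1.89) under 0.5 Mb, 1.71 (1.54 to 1.89) from 0.5 to 1 Mb, 1.78 (1.61 to 1.95) from 1 to 2 Mb and 1.81 (1.64 to 2.01) at 2 Mb or more. Of the 76 stretches in the longest class, 75 held a member. For doxycycline-only peaks the densities were 1.39 (1.25 to 1.55), 1.15 (1.01 to 1.30), 0.945 (0.827 to 1.08) and 0.957 (0.830 to 1.10). Members thus had like densities in short and long stretches, and far doxycycline-only peaks were sparser in those over 1 Mb than in those under 0.5 Mb.

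The fullest stretches held 10 to 12 members each. The stretch from Adgrl2, a latrophilin adhesion receptor, to Adgrl4 (chromosome 3, 148989097 to 151437881) held 12 members in 2.35 Mb, or 5.11 per Mb (2.64 to 8.92), and 3 far doxycycline-only peaks. Its members had folds of 3.93 to 7.86. From Trim52 to Slitrk1, a synaptic adhesion gene (chromosome 14, 106135863 to 108909987), there were 12 members, 4.49 per Mb (2.32 to 7.84), none above 6 fragments, and 2 doxycycline-only peaks.

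From 4931417E11Rik to Ctnna2, which encodes the neuronal alpha-catenin (chromosome 6, 73469668 to 76881636), there were 11 members and 8 doxycycline-only peaks. The stretch from D3Ertd751e to the protocadherin gene Pcdh10 (chromosome 3, 41803308 to 45378397) held 11 members and 2 doxycycline-only peaks. Between Pcdh9 and Spertl (chromosome 14, 93892835 to 95881253) there were 10 members, 5.30 per Mb (2.54 to 9.74), again none above 6 fragments, and 2 doxycycline-only peaks. Those from Fam98a to Crim1, Nudt12 to Efna5, Cntnap5b to Cdh20 and Celf4 to Pik3c3 also held 10 members, and the one described was the densest of these 5 tied stretches. All were picked for their counts from 2768 stretches, so their densities are a description.

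The nearest protein-coding genes numbered 979, out of 4487 genes with far sequence of their own. Of the 979, 640 had 1 member and 32 had 5 or more. A gene with more far sequence has more room for a member, so counts of genes represented in a list are a description. A nearest gene is the closest in the sequence and is not thereby a target. The gene lists below were compared with the share of far sequence that is nearest to their genes, and the same is given for far doxycycline-only peaks.

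Genes of neuronal adhesion and axon guidance were nearest to 123 members (7.68%, 6.42 to 9.09). They were nearest to 6.78% of the far sequence and to 6.48% (5.05 to 8.17) of far doxycycline-only peaks. Of the 65 genes in this list with far sequence, 42 were represented, against 979 of all 4487 genes with far sequence. Such counts depend on how much far sequence each gene has. Epha7, an ephrin receptor, had the most, with 12 members between 153 and 1284 kb away on both sides of the gene. The strongest of the 12 reached 7.86-fold with 9 fragments at 2 sites, 7 had 4 fragments, and 3 doxycycline-only peaks were nearest to this gene. Slitrk1 had 10 members of up to 5.50-fold, Adgrl2 had 8 of up to 7.07-fold and Ctnna2 had 7 of up to 5.41-fold. Cadherins and protocadherins, which join cells through calcium-dependent contacts, were nearest to 69 members (4.31%, 3.37 to 5.42), against 4.36% of the far sequence. Of the 23 of them with far sequence, 20 were represented, again beside 979 of 4487. They were led by Pcdh10 (9 members, up to 7.07-fold), Pcdh20 (8, up to 6.52-fold), Pcdh7 (8, up to 6.29-fold) and Pcdh17 (6, up to 7.07-fold).

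Receptors for glutamate and GABA, the main fast transmitters of the brain, were nearest to 17 members (1.06%, 0.619 to 1.69), against 1.13% of the far sequence. Grik2 had 2, of which 1 lay 1278 kb away at 8.65-fold with 10 fragments (chromosome 10, 47815540 to 47815676). Gabrg1 and Grm3 had 2 each, of up to 4.72-fold. In these 3 neural lists the members' share lay close to the share of sequence, and the interval held it in each.

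Of 30 heart field transcription factor genes with far sequence, 16 were represented, against 979 of all 4487 genes with far sequence. Such counts depend on how much far sequence each gene has. Heart field factors were nearest to 25 members (1.56%, 1.01 to 2.30), against 1.02% of the far sequence and 0.884% (0.405 to 1.67) of far doxycycline-only peaks. The density was 2.68 per Mb (1.74 to 3.96) against 1.75 for all members. The interval of the share holds the 1.02% of far sequence, and that of the density holds 1.75, each near its lower end. The interval of the share lies above 0.884% but overlaps the interval of far doxycycline-only peaks. With non-coding genes counted as genes too the share was 0.853% (0.314 to 1.85), against 0.875% of the far sequence so defined. Of the 25, 3 had a −log10 q of at least 5.

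Among these genes Tbx3, a T-box factor of the conduction system, had 3 members, 307, 389 and 400 kb away at 3.93-, 4.72- and 3.93-fold. Irx2, an Iroquois homeodomain factor, had 3, at 64.1, 296 and 313 kb, of up to 4.72-fold. Hand2, a basic helix-loop-helix factor of the right ventricle and outflow tract, had 2 (chromosome 8, 57053833 to 57053979 and 57111710 to 57111845), at 7.07-fold with 8 fragments and 3.93-fold with 4. Meis2 had 2, of which the stronger (6.29-fold, 225 kb away) lay 12 kb from a doxycycline peak.

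Isl1, the marker factor of second heart field progenitors, had 2 members, 182 and 324 kb away at 5.50- and 4.72-fold, and Mef2c had 2, 618 and 795 kb away at 4.72- and 5.50-fold. The strongest in the list lay 126 kb from Six2 at 8.65-fold with 10 fragments, and Tbx20 had 1 at 7.07-fold and 97.4 kb. Apart from these and the stronger Hand2 site, no member of the list had more than 7 fragments.

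Hedgehog pathway genes were nearest to 4 members (0.250%, 0.0681 to 0.638), against 0.169% of the far sequence. Gli2, the main activator of the family, had 2, at 57.5 kb (chromosome 1, 118776478 to 118776664) with 5 fragments and 4.72-fold enrichment and at 97.0 kb with 4 fragments and 3.93-fold. Gli3 had 1 at 344 kb (chromosome 13, 15119166 to 15119317) with 6 fragments and 5.50-fold, inside the pseudogene Gm9512. Shh, the ligand gene, had 1 at 263 kb (chromosome 5, 28729667 to 28729811) with 4 fragments and 3.93-fold. The nearest doxycycline peak to these 4 lay between 162 and 1653 kb away. The list had 1 far doxycycline-only peak, so far peaks were few in both conditions. Only 9 of its 23 genes had far sequence.

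Other developmental transcription factors were nearest to 56 members (3.50%, 2.65 to 4.52), against 2.75% of the far sequence and 3.34% (2.32 to 4.64) of far doxycycline-only peaks. Sox2, a factor of pluripotent and neural progenitor cells, had 5, from 78.2 to 258 kb on both sides of the gene. The strongest of the 5 (chromosome 3, 34865786 to 34866087), 302 bp wide, had 10 fragments and 8.65-fold enrichment inside the lncRNA Gm21388, and the other 4 had 4 or 5 fragments. Sox2 was nearest to 0 far doxycycline-only peaks, a count that leaves out doxycycline peaks within 50 kb of a gene. A doxycycline peak lay 51.5 kb from the member at 78.2 kb and one lay 82.8 kb from the member at 110 kb. Nr2f2 had 3 members of up to 7.07-fold, Sox4 had 3 of up to 6.05-fold and Pou3f2 had 3 of up to 5.50-fold.

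TGF-beta, FGF and WNT signalling genes were nearest to 11 members (0.687%, 0.343 to 1.23), against 1.05% of the far sequence and 1.47% (0.827 to 2.42) of far doxycycline-only peaks. The strongest lay 188 kb from the FGF receptor gene Fgfr2 at 8.51-fold with 10 fragments, and a further one lay 52.6 kb from it at 3.91-fold. Bmp4 had 2, at 75.4 kb (4.26-fold) and 260 kb (5.50-fold). Gdf10 and Sfrp2 had 1 each at 4.72-fold.

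Chemosensory receptor genes were nearest to few members, but the distance limit itself keeps members away from most of them. Only 30 of 1105 olfactory and 75 of 350 vomeronasal receptor genes had far sequence. Of the other untreated-only peaks, 44 (1.63%) and 22 (0.814%) lay nearest to or inside these genes. Olfactory receptor genes were nearest to 1 member (0.0624%, 0.00158 to 0.347), at Olfr275, against 0.209% of the far sequence, and vomeronasal receptor genes to 2 (0.125%, 0.0151 to 0.450), at Vmn2r7 and Vmn2r68, against 0.413%. Protein-coding genes known by a Gm number were nearest to 69 (4.31%, 3.37 to 5.42), against 5.83%, led by Gm826 and Gm597 with 5 members each and Gm15501 and Gm32936 with 3 each. The interval held the share of sequence in the first 2 of these lists and ended below it in the list of Gm numbers. The far doxycycline-only peaks had 2 (0.196%, 0.0238 to 0.708), 1 (0.0982%, 0.00249 to 0.546) and 37 (3.63%, 2.57 to 4.98). How much of this sequence can be mapped was not tested.

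**Figure D4:**
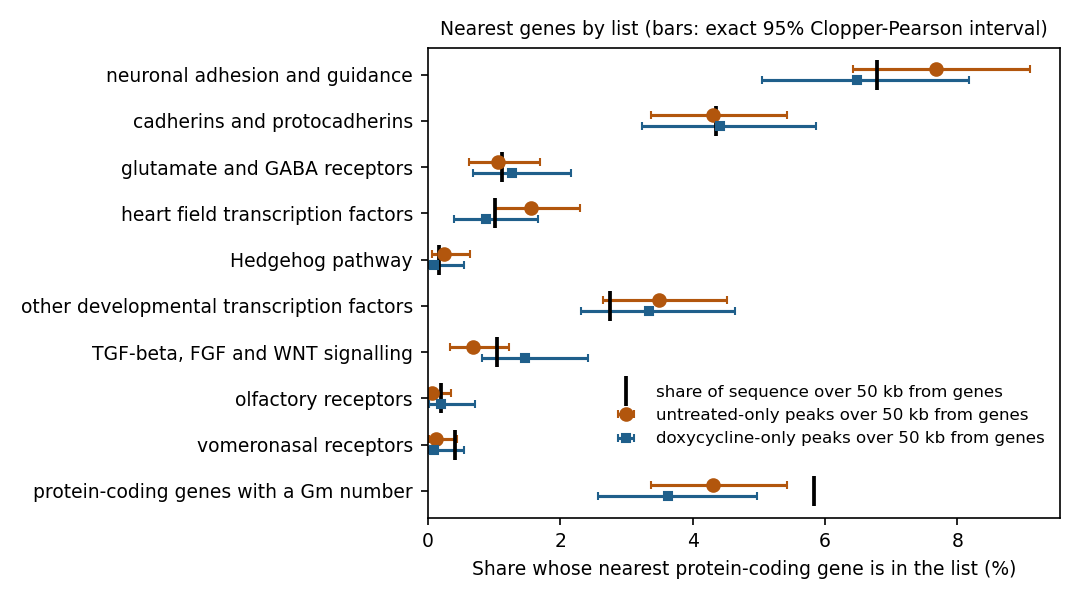
Share of far peaks whose nearest protein-coding gene is in each list (x axis, %; lists on the y axis) for untreated-only and doxycycline-only peaks, with exact 95% Clopper-Pearson intervals, and the share of far sequence nearest to the list as a black tick. The tick lies inside the untreated-only interval for neuronal adhesion (7.68% against 6.78%), at its lower end for heart field factors (1.56% against 1.02%) and to its right for genes with a Gm number (4.31% against 5.83%).

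Non-coding genes held members about as often as their length gives. The midpoint of 192 members (12%, 10.4 to 13.7) lay inside an annotated lncRNA, against 11% of the far sequence and 15.3% (13.2 to 17.7) of far doxycycline-only peaks. Members inside lncRNAs had a median fold of 4.72, the same as outside, and 12.5% against 8.58% reached a −log10 q of 5. The strongest were 12-fragment peaks inside C230014O12Rik, 109 kb from Pbx3, and Gm33806, 289 kb from Zfp64. The lncRNA 6530403H02Rik, 432 kb long, held 4 members and 5730522E02Rik, 594 kb long, held 3. Pseudogenes held 16 members (0.999%, 0.572 to 1.62), against 1.30% of the far sequence.

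Few members lay within 10 kb of a doxycycline peak that they did not overlap. A doxycycline peak lay within 10 kb of 48 members (3%, 2.22 to 3.95), of 3.33% (2.69 to 4.08) of the other untreated-only peaks and of 3.21% of all untreated-only peaks. Within 50 kb there was one for 11.4% of members (9.91 to 13.1), 13.8% of the others (12.6 to 15.2) and 12.9% of all. Within 100 kb there was one for 20.5% of members (18.6 to 22.6), 27.2% of the others (25.5 to 28.9) and 24.7% of all. The shares were thus alike at 10 kb, and at 100 kb that of members was lower, with intervals that do not overlap. The density of doxycycline-only peaks is also lower far from genes, as given above, and its part in this difference was not tested. The members' median distance to a doxycycline peak was 293 kb. Within 1 kb there were 9 members. The closest, 2078 kb from Cntnap5b (chromosome 1, 102568770 to 102568905), ended 0.009 kb from a doxycycline peak. The second and the third lay 0.101 kb from one, 250 kb from Cited2, and 0.200 kb from one, 95.6 kb from the chromatin protein gene Hmga2 (chromosome 10, 120572000 to 120572135). Of the 9, 7 had 4 or 5 fragments, and the others had 7 fragments near Cntnap5b and 24 in the chromosome 9 block. Stretches that held both kinds of far peak numbered 382, or 46.7% of those with a member and 59.7% of those with a far doxycycline-only peak.

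From a member, the nearest other member lay a median of 259 kb away. Of the 1602 members, 69 had one within 10 kb and 12 within 1 kb. No expected count was worked out for these distances, so they are a description. The closest pair, 0.182 kb apart, lay nearest to the chromosome condensation gene Smc2 (chromosome 4, 52022954 to 52023097 and 52023279 to 52023430), with 8.65-fold enrichment at 10 fragments and 6.29-fold at 7. A pair near Adam34l lay 0.235 kb apart and one near Brinp1 0.249 kb apart, both with at most 6 fragments. Among windows of 1 Mb, the fullest held 8 members, with Gramd3 and Zfp608 as nearest genes, and the next held 7 each, 1 with Pcdh10 and 1 with Crim1 as the nearest gene.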

How the data were processed

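The samples were 6 ChIP-seq libraries, grouped by their titles. The mm10 build, MACS2 2.1.1, Bowtie2 2.3.2 and SAMtools 1.5 were used by the authors, per the submitters' processing notes. Not given in the sources used here are their settings, the fragment totals, whether pull-downs of 1 condition were pooled for the calls, and whether the inputs entered the local expectation, on which every fold, p and q rests. A peak's fold, a ratio to its local expectation, was deposited by the authors, and −log10 p and −log10 q are the authors' deposited values per peak. The deposited score repeats −log10 q and was not used.

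Rows that shared an interval were merged with the best summit kept. Pileup k and expectation e were solved from fold = (k + 1) / (e + 1) and an upper-tail Poisson p, within 0.01 of −log10 p, for every member and 99.8% of each list. Genes were the 21523 protein-coding entries of GRCm38.p6, the assembly of mm10, on 20 chromosomes. A further 340 entries of any kind that end in the first 3 Mb of a chromosome, before any peak, were taken to carry coordinates of other scaffolds and left out. The lengths run from the first to the last entry or peak of a chromosome. Coordinates are counted from 1. Promoter and miRNA sequences are from RefSeq (GRCm38.p6). A genome sequence and repeat annotation were not used here.

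With 1 list per condition no test was made. Exact 95% Clopper-Pearson and Poisson intervals cover counting error only. Named genes are those nearest to the 15 highest −log10 q, the 5 farthest members, 3 peaks on each side of the limit, the 5 fullest stretches (ties by density), and up to 4 per list; 1 gene is not reported here. Other genes were named after their values were seen. The members and lists were chosen with earlier results of these data known. Pileups, gene distances, overlaps and the far share were tested on simulated peaks with known answers. The work used scipy 1.17.1, pandas 2.3.3, numpy 2.4.6, and for figures matplotlib 3.10.9, under Python 3.11.15.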

Additional observations from a re-analysis of the deposited data

How the results depend on the processing

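Under 10 alternatives for 9 results, 75 of 90 values moved by less than their 95% interval (counts by less than 1.5 times), and the ratio of far to other density, 1.07, ran from 1.07 to 1.17. Many values could hardly move, so this tally says little about stability. The interval of the density ratio included 1 with −log10 q of at least 5 (0.947 to 1.45) and with non-coding genes counted as genes (0.992 to 1.17). Every deposited row, or the summit for the midpoint, gave 1602 members again. An overlap of at least 50% gave 1605, a doxycycline peak within 1 kb 1593, and leaving out expectations above 2 times background 1600. Alternatives for densities, gene lists and distances to doxycycline peaks were chosen after seeing the data. With −log10 q of at least 5 in both lists, there were 147 members (39.3% of untreated-only peaks), with a median fold of 7.86, a far to other density ratio of 1.17, 9.52% nearest to neuronal adhesion genes (6.78% of far sequence) and 4.08% within 10 kb of a doxycycline peak. With at least 5 fragments there were 1056 members with a median fold of 5.32. The share far from genes was 44.5% at 25 kb and 29.6% at 100 kb, where 9.28% were nearest to neuronal adhesion genes (7.98% of far sequence). With non-coding genes counted as genes there were 703 members (16.3%), of which 9.96% were nearest to neuronal adhesion genes (9.30% of far sequence) and 0.853% to heart field genes (0.875%). The share of sequence lies inside the exact 95% interval in each of these 4 cases. These alternatives keep fewer or other peaks by construction. No paired analysis was possible because the peaks carry no value for a single pull-down. Absence from the doxycycline list means only that no peak was called there; the smallest pileup in that list was 5 fragments.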
